A study of Mus musculus with 2 samples.

Results

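Interferons reach a cell through 3 kinds of receptor, and the 9 genes described here are 5 chains of those receptors and 4 transcription factors that act behind them. The members are the matrix rows whose symbol is Ifnar1, Ifnar2, Ifngr1, Ifngr2, Ifnlr1, Irf1, Irf7, Irf9 or Stat2. All 9 were found among the 31205 gene symbols. They were measured in single cells from the crypts of the mouse duodenum, where the stem cells of the gut lining sit, in a series whose title concerns chronic stress and the aging of those stem cells. The groups are called ES and NT, which the labels do not spell out. Both came from wild-type mice, and the crypts of 5 animals were pooled in each group before a single library was made, so there are no replicates and single animals cannot be told apart. The age and strain are not stated. Each barcode carries the number 2 or 1, taken to mark the 2 libraries, and no label ties a number to ES or NT. Every comparison below is therefore of library 2 with library 1, with no test and no direction between ES and NT.

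Type I interferons (interferon alpha, beta and relatives) bind a pair of chains encoded by Ifnar1 and Ifnar2. Type II interferon, interferon gamma, is bound by the chain encoded by Ifngr1, and the partner chain encoded by Ifngr2 is needed for signalling. Type III interferons (interferon lambda) bind the chain encoded by Ifnlr1, which works with the shared chain encoded by Il10rb, also a part of the receptors for interleukins 10 and 22. Types I and III both lead to a complex that holds STAT2 and IRF9 and switches on interferon-stimulated genes, among them Irf7, whose product amplifies interferon production. Type II signals without that complex for the most part, and Irf1 is a classic target of its route. In the gut, epithelial cells are known for responding to interferon lambda.

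The genes lie at the following places on the mouse build mm10, with coordinates from GENCODE M21. The 4 genes Ifnar2, Il10rb, Ifnar1 and Ifngr2 are neighbours on the plus strand of chromosome 16, within 192.84 kb. Ifnar2 spans chr16:91372783-91405589, Il10rb chr16:91406164-91425834, Ifnar1 chr16:91485238-91507441 and Ifngr2 chr16:91547072-91565623. Ifngr1 lies at chr10:19591949-19610229, Stat2 at chr10:128270559-128292849, Ifnlr1 at chr4:135686287-135708181, Irf1 at chr11:53770014-53778374 and Irf9 at chr14:55603571-55610030, all on the plus strand. Irf7 lies on the minus strand at chr7:141262706-141266481.

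The promoters of Irf7 and Stat2, the pair of members whose levels ran closest together, and of Irf1, the transcription factor that did not stand apart between the libraries, are shown for comparison. The stretches come from RefSeq (GRCm38.p6), run 5′ to 3′ on the gene's own strand, hold only bases before the gene's GENCODE start, and carry a motif match in capitals where 1 was found. The Irf7 stretch is chr7:141266482-141266674, that of Stat2 is chr10:128270248-128270497 and that of Irf1 is chr11:53769764-53770013.
Irf7: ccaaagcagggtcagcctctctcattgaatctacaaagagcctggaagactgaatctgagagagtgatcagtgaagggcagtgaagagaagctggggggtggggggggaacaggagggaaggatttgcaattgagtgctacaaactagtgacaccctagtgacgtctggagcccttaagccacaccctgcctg
Stat2: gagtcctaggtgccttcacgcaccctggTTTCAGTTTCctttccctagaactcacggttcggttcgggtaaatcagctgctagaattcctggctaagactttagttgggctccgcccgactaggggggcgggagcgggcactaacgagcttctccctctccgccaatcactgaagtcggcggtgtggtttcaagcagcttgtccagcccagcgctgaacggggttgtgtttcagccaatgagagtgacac
Irf1: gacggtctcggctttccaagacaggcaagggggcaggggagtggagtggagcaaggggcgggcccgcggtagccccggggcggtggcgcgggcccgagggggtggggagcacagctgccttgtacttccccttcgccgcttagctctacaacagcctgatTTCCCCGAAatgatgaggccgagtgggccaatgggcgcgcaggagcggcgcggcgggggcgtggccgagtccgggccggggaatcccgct
All 9 members had a RefSeq window, and the 250 bases before the RefSeq start were searched on both strands. The Irf9 windows lay wholly past the gene's GENCODE start, so the bases before that start were not searched for Irf9. Of the 250 bases, 80 lay before the GENCODE start for Ifnlr1 and 193 for Irf7. A core of the interferon-stimulated response element, spelled GAAA, any pair of bases, then GAAA, was found in the window of 1 member, Stat2, where it reads TTTCAGTTTC on the strand shown, and in 2.98% of all 32851 windows. The motif TTCNNNGAA, a palindrome from the class of gamma-activated sites, was found in the windows of Irf1 (TTCCCCGAA) and Ifnar2, and in 7.02% of all windows. It reads the same on both strands and does not overlap the first motif in these windows. A longer form of the first, with a further pair of bases and GAAA behind it, was found in no member and in 0.0913% of windows. A match is a run of letters and not a bound site.

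The cells came from 12756 barcodes with 54877667 unique molecular identifiers (UMIs, each taken as 1 captured RNA molecule) in library 2 and 54316199 in library 1. After a filter of at least 500 genes and at most 25% mitochondrial UMIs, 3727 cells of library 2 and 4057 of library 1 were kept, with medians of 11800 and 10854 UMIs. There were 40 barcode sequences present in both libraries, 21 of them kept in each. Classes were set by UMIs of marker genes, and none of the members was among the markers. Of the kept cells, 3307 in library 2 and 3593 in library 1 fell into 11 classes. These were 355 and 467 stem-like cells that were not cycling, 392 and 564 cycling stem-like cells, 344 and 565 cycling progenitor-like cells, 216 and 129 cells high in gasdermin C genes, 212 and 139 cells high in Reg3b and Reg3g, 633 and 675 enterocyte-like cells, 599 and 498 goblet-like cells, 179 and 200 Paneth-like cells, 93 and 66 enteroendocrine-like cells, and 68 and 34 tuft-like cells. The last class, 216 and 256 cells, is called the lymphocyte gate. It was chosen on lymphocyte markers and led by Trgv2, Trgv1, Fasl and Slamf7, but it was shallow, with medians of 3252 and 2447.5 UMIs, and none of its fixed markers was among its 10 leading genes, so it carries no cell type name. No doublet caller was run. Levels are counts per 1e6 UMIs of the class (CPM), with exact 95% Poisson intervals that cover counting error only. In such pooled counts, fewer expressing cells and less RNA per cell cannot be told apart.

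The receptor for interferon gamma split between the crypt's compartments. Ifngr1 was found in every class, while Ifngr2 was found throughout the epithelium and close to 0 in the lymphocyte gate. Over the 10 epithelial classes together, Ifngr2 stood at 143 CPM in library 2 (95% interval 139 to 146) and 143 CPM in library 1 (139 to 146). In the lymphocyte gate it stood at 6.98 CPM in library 2, from 6 UMIs, and 7.33 CPM in library 1, from 5 UMIs. The epithelium was thus 20.4-fold higher in library 2 (9.38 to 55.7) and 19.5-fold higher in library 1 (8.35 to 60.1). The Ifngr2 level of the lymphocyte gate was 4.90% of the epithelial level in library 2 and 5.13% in library 1. For Epcam, an adhesion protein of epithelial cells, the same figure was 9.91% and 11.5%. Whether the few Ifngr2 UMIs of the gate are free RNA was not tested. Ifngr1 lay the other way, at 129 CPM in the epithelium against 168 CPM in the lymphocyte gate of library 2 (ratio 0.769, 0.651 to 0.913) and 124 against 217 CPM in library 1 (0.574, 0.487 to 0.680).

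Within the epithelium, Ifngr2 had a steep order that was close in both libraries. It was highest in enterocyte-like cells, at 210.4 CPM in library 2 and 212 CPM in library 1. The gasdermin C group (189 and 200.3 CPM) and the Reg3 group (189.8 and 195 CPM) came next and overlapped each other. After thinning to 2000 UMIs the Reg3 group was highest in the mean of the libraries. Stem-like cells that were not cycling had 147 and 153 CPM, above cycling stem-like cells with 121 and 119.7 CPM and cycling progenitor-like cells with 126 and 120.5 CPM. Tuft-like cells had 124 and 143 CPM. The other secretory classes were lower, goblet-like cells at 76.1 and 105 CPM, enteroendocrine-like cells at 56.1 and 72.7 CPM, and Paneth-like cells at 30.02 and 37.0 CPM. The libraries gave 7 of the 11 classes the same rank, and the other 4 changed places with a neighbour. Enterocyte-like cells had 2.76 times the goblet-like level in library 2 (2.50 to 3.06) and 2.03 times in library 1 (1.85 to 2.24). In goblet-like cells Ifngr2 in library 2 was 0.728 times that in library 1 (0.643 to 0.823), short of the 1.5-fold used below.

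Ifngr1, the ligand-binding chain, was much flatter over the absorptive side. It ranged from 116 CPM (goblet-like) to 152 CPM (Reg3 group) in library 2 and from 115 CPM (cycling progenitor-like) to 162 CPM (gasdermin C group) in library 1 over the stem-like, progenitor-like, gasdermin C, Reg3, enterocyte-like and goblet-like classes, whose neighbours in the order overlapped. Tuft-like cells, at 60.3 and 95.3 CPM, and enteroendocrine-like cells, at 59.7 and 80.0 CPM, were lower. Tuft-like cells held 0.422 times the enterocyte-like level in library 2 (0.296 to 0.584) and 0.643 times in library 1 (0.448 to 0.894). Paneth-like cells were lowest, at 34.8 and 47.0 CPM. Paneth-like cells were also lowest for Ifnar1, Irf1, Irf9 and Stat2 in the mean of the libraries. Alpha-defensin genes took 50.1% of all UMIs of Paneth-like cells in library 2 and 48.3% in library 1, against at most 1.14% in any other class, and their part in these low levels was not tested. When classes were scaled by a median of ratios over genes instead, Paneth-like cells moved to rank 9 of 11 for Ifngr1, Ifngr2 and Irf1. They moved to rank 6 for Stat2, rank 5 for Irf7, Irf9 and Ifnlr1 and rank 2 for Ifnar2. For Ifnar1 they stayed at rank 11, but with a mean scaled level of 18.1 against 18.5 in cycling progenitor-like cells. By mean CPM these Ifnar1 levels were 7.68 and 21.5.

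**Figure D1:**
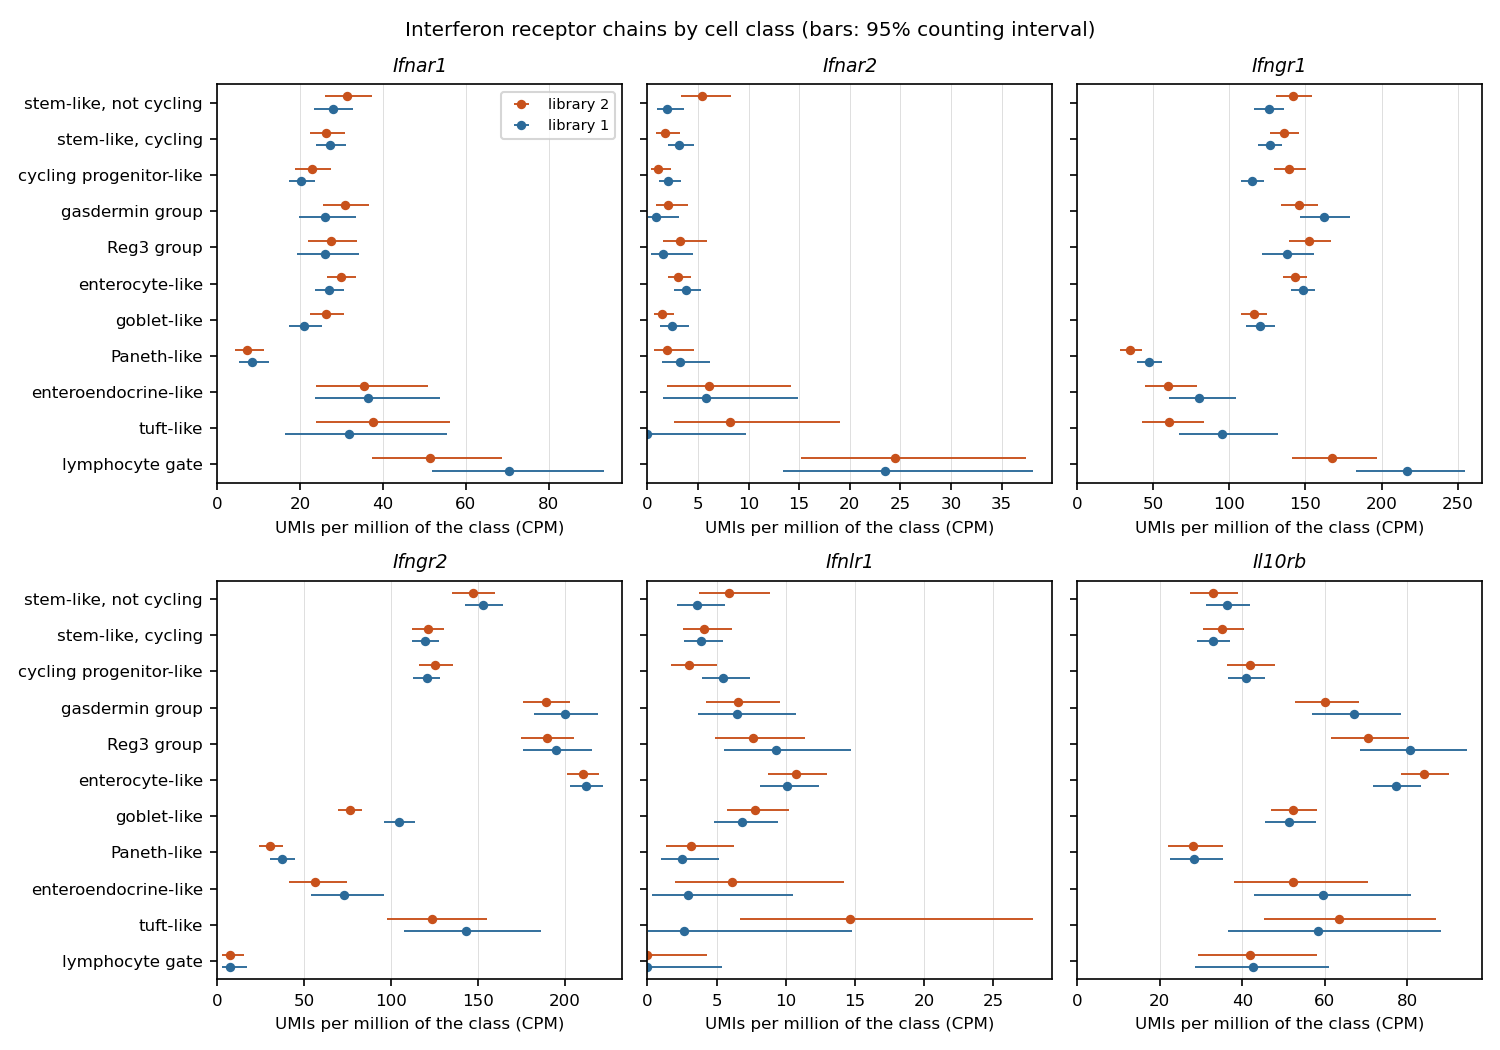
Levels of the 5 receptor chains and of Il10rb in CPM (counts per 1e6 UMIs of the class), by cell class, with library 2 above library 1 and bars for the 95% counting interval. Ifngr2 and Ifnlr1 are at or near 0 in the lymphocyte gate, where Ifnar2 (24.4 and 23.4 CPM) and Ifnar1 (51.2 and 70.3 CPM) are highest.

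The receptor for type I interferon ran opposite to Ifngr2. Ifnar2 was low across the epithelium, at 2.57 CPM in library 2 (107 UMIs, 2.11 to 3.11) and 2.67 CPM in library 1 (116 UMIs, 2.21 to 3.20). In the lymphocyte gate it stood at 24.4 CPM in library 2 (21 UMIs) and 23.4 CPM in library 1 (16 UMIs). The epithelium therefore held 0.105 times the level of the lymphocyte gate in library 2 (0.0654 to 0.177) and 0.114 times in library 1 (0.0672 to 0.206). Ifnar1 also stood higher in the lymphocyte gate, but with a smaller gap: 26.8 CPM in the epithelium against 51.2 CPM in library 2 (ratio 0.524, 0.388 to 0.725) and 24.0 against 70.3 CPM in library 1 (0.341, 0.256 to 0.466). As a measure of lymphocyte RNA in epithelial cells, the sum of Ptprc, Cd3g and Gzma in any epithelial class was at most 0.320% of its level in the lymphocyte gate in library 2 and 0.153% in library 1.

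By CPM, Ifnar1 varied little among epithelial classes outside Paneth-like cells, whose gap to the next class nearly closed with the scaling given above. Paneth-like cells had 7.11 and 8.26 CPM in library 2 and library 1. The others lay between 22.8 CPM (cycling progenitor-like) and 37.5 CPM (tuft-like) in library 2 and between 20.2 CPM (cycling progenitor-like) and 36.4 CPM (enteroendocrine-like) in library 1. For Ifnar2 the order of the epithelial classes cannot be told: each held between 0 and 34 UMIs in a library, and every epithelial class overlapped the next in the order when its range over the libraries was compared. Enteroendocrine-like cells were second in the mean of the libraries with 6.09 and 5.82 CPM, from 5 and 4 UMIs. Tuft-like cells had 5 UMIs (8.15 CPM) in library 2 and 0 in library 1, where a count of 0 still allows 3 UMIs.

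Ifnlr1, the chain that binds interferon lambda, was found in every epithelial class and not detected in the lymphocyte gate. Its 286 UMIs in the epithelium of library 2 gave 6.87 CPM (6.10 to 7.71) and its 263 UMIs in library 1 gave 6.05 CPM (5.34 to 6.83). The lymphocyte gate held 0 UMIs of Ifnlr1 among 859266 in library 2 and 0 among 682478 in library 1. Setting that 0 at the 3 counts it allows per library, the epithelium was 1.97-fold higher in library 2 and 1.38-fold higher in library 1. The lower end of the exact interval of the ratio was 1.59 in library 2 and 1.11 in library 1. The difference was not detectable in both libraries after thinning to 2000 UMIs or with a stricter cell filter (1000 genes, 15% mitochondrial UMIs): the lower end of the ratio's interval was then 0.696 and 1.46 in library 2 and 0.460 and 0.954 in library 1.

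Ifnlr1 and its partner Il10rb were both higher in enterocyte-like than in stem-like cells. Enterocyte-like cells had 10.7 and 10.1 CPM of Ifnlr1 in library 2 and library 1, from 103 and 91 UMIs. Stem-like cells that were not cycling had 5.90 and 3.55 CPM, from 23 and 18 UMIs. The ratio of these classes was 1.81 in library 2 (1.15 to 2.99) and 2.84 in library 1 (1.70 to 5.01). Goblet-like cells lay between them at 7.77 and 6.86 CPM, the Reg3 group at 7.63 and 9.32 CPM, and the gasdermin C group at 6.54 and 6.49 CPM. Tuft-like cells differed most between the libraries, with 9 UMIs (14.7 CPM) in library 2 against 1 UMI (2.65 CPM) in library 1 (ratio 5.54, 0.768 to 243). Il10rb stood at 84.1 and 77.3 CPM in enterocyte-like cells and at 32.9 and 36.3 CPM in stem-like cells that were not cycling, a ratio of 2.56 in library 2 (2.12 to 3.11) and 2.13 in library 1 (1.81 to 2.52). Unlike Ifnlr1 it was also present in the lymphocyte gate, at 41.9 and 42.5 CPM.

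Single cells show the same division at the depth available. Each cell was thinned to 4000 UMIs, leaving out shallower cells, and scored for a UMI of both chains of a receptor. Both interferon gamma chains were seen in 114 of 548 enterocyte-like cells of library 2 (20.8%, exact interval 17.5 to 24.4) and 138 of 527 of library 1 (26.2%, 22.5 to 30.2). For stem-like cells that were not cycling the share was 18.6% of 296 cells and 19.4% of 366 cells. The share was 23.2% and 31.7% in the gasdermin C group and 23.9% and 31.3% in the Reg3 group. Their intervals overlapped those of enterocyte-like cells. The share in goblet-like cells was 8.46% and 11.4%. In the lymphocyte gate it was 0 of 75 cells and 0 of 20 cells, which allows up to 4.80% and 16.8%. The shares with both chains were near the product of the single-chain shares, 21.0% and 24.8% in enterocyte-like cells, which is close to what independent draws of the chains would give.

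Both type I chains were seen together in at most 2 cells of any class and library, namely 2 of 296 stem-like cells that were not cycling in library 2. Both type III chains were seen in 9 of 548 enterocyte-like cells of library 2 (1.64%, 0.754 to 3.09) and 3 of 527 of library 1 (0.569%, 0.118 to 1.65). At single-chain shares this low, 4.56% and 2.85% for Ifnlr1 in enterocyte-like cells after thinning and 13.7% and 11.7% before it, a cell without a UMI of a chain is not a cell without the chain.

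**Figure D2:**
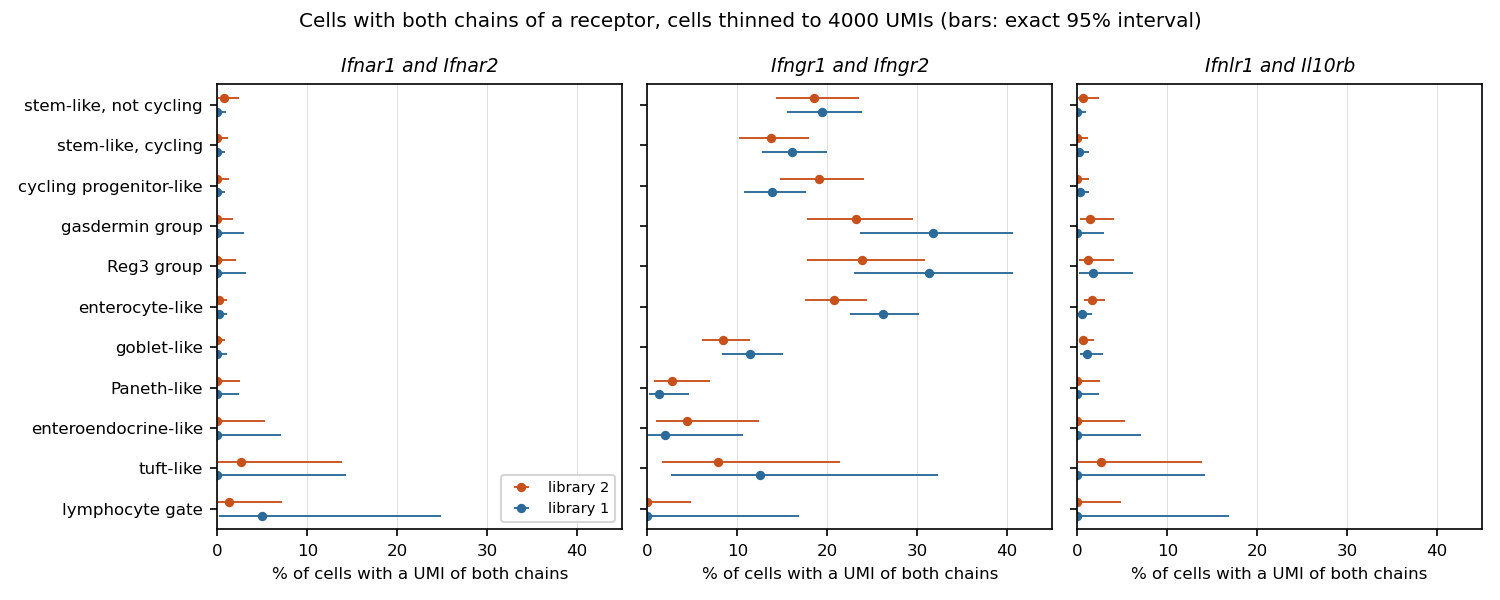
Percent of cells with at least 1 UMI of both chains of a receptor, by cell class, after thinning each cell to 4000 UMIs, with library 2 above library 1 and exact 95% binomial intervals. The interferon gamma pair is highest in the Reg3 group in library 2 (23.9%) and in the gasdermin C group in library 1 (31.7%). In the lymphocyte gate it is seen in 0 of 75 and 0 of 20 cells of library 2 and library 1. The type III pair stays at or under 2.63%.

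The kinases that the receptors share were most abundant in the lymphocyte gate. Jak1, the kinase bound to the chains of all 3 receptor types, stood at 91.0 CPM in the epithelium and 525 CPM in the gate in library 2 (ratio 0.173, 0.157 to 0.192), and at 90.4 and 507 CPM in library 1 (0.178, 0.160 to 0.200). The same held for Jak2, used by the interferon gamma receptor, with ratios of 0.235 and 0.209, and for Tyk2, used by types I and III, with 0.291 and 0.229. Among the epithelial classes Jak1 was highest in enteroendocrine-like cells, at 215 and 189 CPM.

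The transcription factors showed 2 patterns. Irf1, a classic type II target, was highest in the lymphocyte gate and lowest in Paneth-like cells, as Ifngr1 was. Enteroendocrine-like cells differed, with 59.7 and 80.0 CPM of Ifngr1 but 183 and 161 CPM of Irf1. Irf1 stood almost level between the libraries. It had 229 CPM in enterocyte-like cells of both libraries, 227 and 228 CPM in the Reg3 group, 178 and 167 CPM in stem-like cells that were not cycling, and 59.6 and 70.03 CPM in Paneth-like cells. The lymphocyte gate was highest at 268 and 275 CPM. Irf7, Irf9 and Stat2 differed between classes in each library, and by the 1.5-fold rule given below they were higher in library 2 in 10, 6 and 9 of the 11 classes. Thinning turned 2 of these ratios round, as given there.

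Irf7 had the widest range of the transcription factors. It was low in Paneth-like cells, at 20.5 CPM in library 2 and 8.26 CPM in library 1, and in the stem-like and progenitor-like cells, with 23.4, 21.0 and 25.8 CPM in library 2 and 4.54, 5.34 and 7.67 CPM in library 1 in the order not cycling, cycling and progenitor-like. Enterocyte-like cells held 84.1 CPM in library 2 and 20.6 CPM in library 1. Goblet-like cells held 95.2 and 25.03 CPM, and tuft-like cells 163 and 39.7 CPM. Within a library, enterocyte-like cells were 3.60-fold above stem-like cells that were not cycling in library 2 (2.90 to 4.52) and 4.55-fold in library 1 (2.94 to 7.35), and goblet-like cells were 4.08-fold (3.27 to 5.14) and 5.51-fold above them (3.53 to 8.995). The gradient along the epithelium was therefore present in both libraries, at different levels. Tuft-like cells stood above enterocyte-like cells by 1.94-fold in library 2 (1.56 to 2.39) and 1.92-fold in library 1 (1.06 to 3.26), from few cells whose median depth was 4591 UMIs in library 2 and 10312 in library 1.

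Stat2, which encodes a part of the complex of type I and III signalling, followed the same course. Stem-like cells that were not cycling had 40.04 CPM in library 2 and 13.6 CPM in library 1. Enterocyte-like cells had 99.3 and 35.2 CPM, goblet-like cells 113 and 56.4 CPM, and tuft-like cells 194 and 47.7 CPM. Enterocyte-like cells were 2.48-fold above the stem-like cells in library 2 (2.09 to 2.96) and 2.58-fold in library 1 (1.99 to 3.403). The lymphocyte gate had 119.9 and 106 CPM of Stat2 and 68.7 and 48.4 CPM of Irf7. It was the highest class for both genes in library 1, while tuft-like cells were highest in library 2.

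Irf9, the DNA-binding part of the complex, was flatter. It had 73.9 and 43.0 CPM in stem-like cells that were not cycling, and 86.0 and 63.5 CPM in enterocyte-like cells, a ratio of 1.16 in library 2 (1.02 to 1.33) and 1.48 in library 1 (1.26 to 1.73). The lymphocyte gate stood at 141 and 65.9 CPM and tuft-like cells at 137 and 42.4 CPM.

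**Figure D3:**
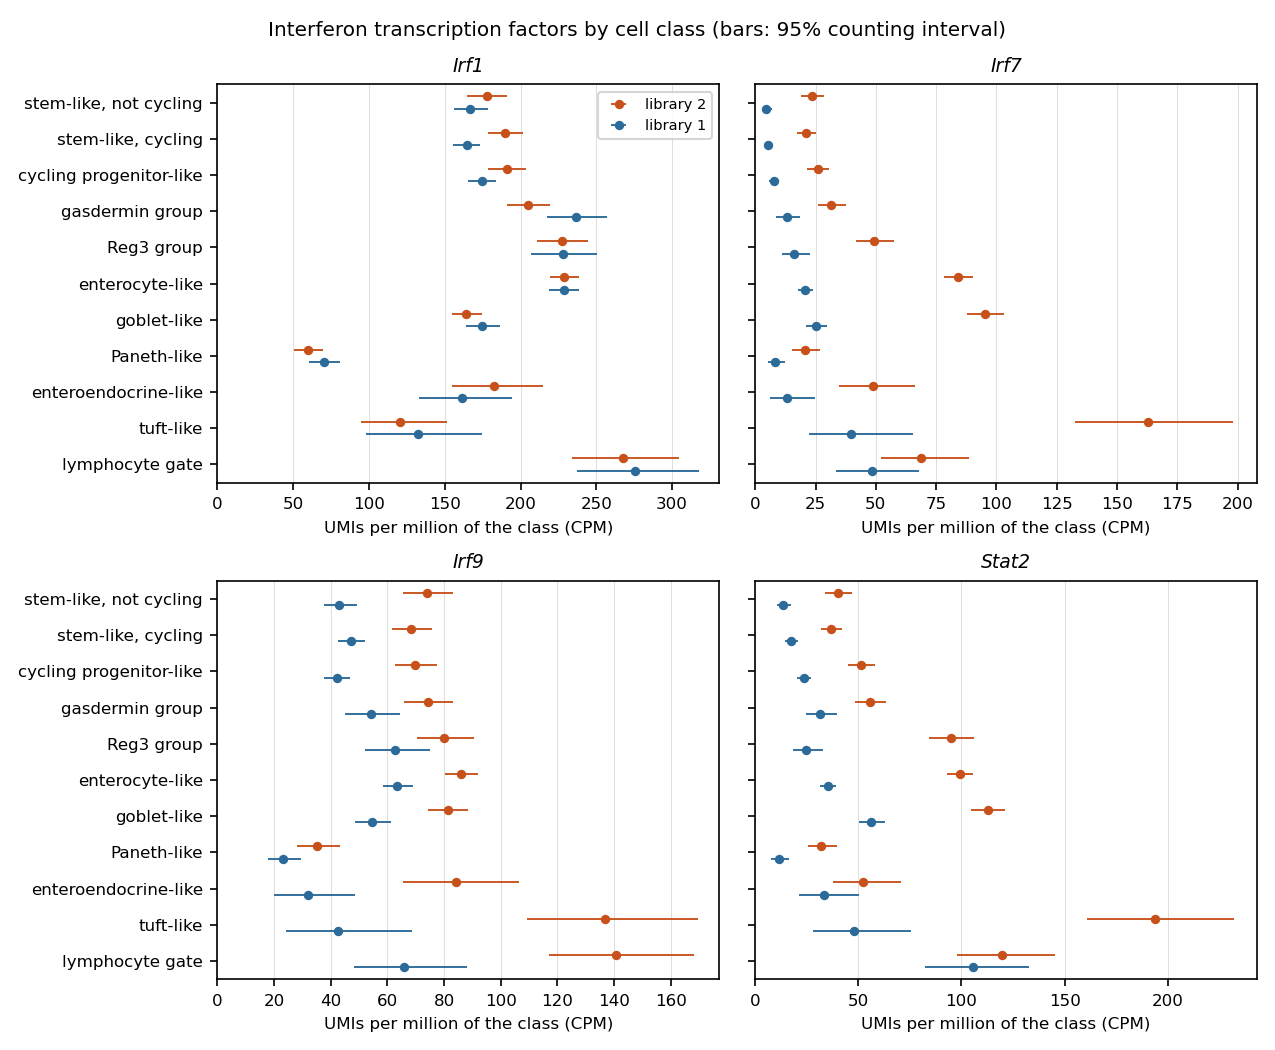
Levels of Irf1, Irf7, Irf9 and Stat2 in CPM, by cell class, with library 2 above library 1 and bars for the 95% counting interval. Irf1 overlaps between the libraries in most classes, while Irf7 is higher in library 2 in the 10 epithelial classes, except in Paneth-like cells after thinning to 2000 UMIs, from 163 against 39.7 CPM of Irf7 in tuft-like cells to 20.5 against 8.26 CPM in Paneth-like cells.

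To set the libraries side by side, a gene was called apart in a class when its CPM differed by at least 1.5-fold, the exact 95% interval of the ratio excluded 1, and it had at least 20 UMIs over both libraries. Of the 99 pairs of member and class, 89 had enough UMIs. In 26 of these the member was apart and higher in library 2, which is 29.2%, and in 0 it was lower. Over all genes and classes, 4.16% of 107230 pairs were higher and 3.53% lower. The transcription factors made up 25 of the 26, out of 44 pairs measured, and the receptor chains 1, out of 45. These are descriptions of 2 libraries. In library 2 the lymphocyte markers were also higher in all 10 epithelial classes: the summed level of the 11 lymphocyte genes ran from 73.1 to 199 CPM in library 2 and from 52.8 to 119 CPM in library 1, with none of the 11 at 0, against 57394 and 61376 CPM in the lymphocyte gate. Their part in the differences was not tested.

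Read by class, the members higher in library 2 were 4 of 9 in stem-like cells that were not cycling, where 2.96% of all genes were higher and 1.68% lower. They were 2 of 9 in cycling stem-like cells (2.74% of all genes higher, 1.71% lower) and 3 of 9 in cycling progenitor-like cells (2.99% and 2.06%). The gasdermin C group had 2 of 8 (2.88% and 1.96%) and the Reg3 group 2 of 8 (4.02% and 1.63%). Enterocyte-like cells had 2 of 9 (3.94% and 2.37%) and goblet-like cells 2 of 9 (3.72% and 3.19%). Paneth-like cells had 3 of 7 (3.99% and 9.5%), enteroendocrine-like cells 2 of 7 (7.05% and 6.34%) and tuft-like cells 3 of 7 (6.83% and 3.9%). In the lymphocyte gate it was 1 of 7, where 6.6% of all genes were higher and 6.67% lower. No member was lower in library 2 in any class by this rule.

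Irf7 was apart in 10 of 11 classes, with ratios from 1.42 in the lymphocyte gate, which was not apart (0.912 to 2.25), to 5.15 in stem-like cells that were not cycling (3.23 to 8.52). There the counts were 91 UMIs in library 2 and 23 in library 1. In enterocyte-like cells the ratio was 4.07 (3.47 to 4.80), from 809 and 186 UMIs. In goblet-like cells it was 3.80 (3.15 to 4.62), and in tuft-like cells 4.10 (2.37 to 7.60). In cycling stem-like cells it was 3.93 (2.75 to 5.70). Paneth-like cells gave 2.49 (1.495 to 4.26), from 52 and 23 UMIs, but after thinning to 2000 UMIs the log2 ratio turned to -1.65 there. Thinning left 2 of 157 Paneth-like cells with an Irf7 UMI in library 2 and 7 of 175 in library 1. The median log2 ratio of all genes was -0.13 in Paneth-like cells and between -0.013 and 0.077 in the other classes.

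Stat2 was apart in 9 of 11 classes. The highest ratios were 4.07 in tuft-like cells (2.47 to 7.10), 3.81 in the Reg3 group (2.80 to 5.28) and 2.94 in stem-like cells that were not cycling (2.20 to 3.96). In enterocyte-like cells it was 2.82 (2.48 to 3.21), from 955 and 317 UMIs. In the gasdermin C group it was 1.76 (1.34 to 2.33), and there thinning to 2000 UMIs turned the log2 ratio to -0.27. The classes where Stat2 was not apart were the enteroendocrine-like cells, at 1.57 (0.924 to 2.72), and the lymphocyte gate, at 1.14 (0.833 to 1.56).

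Irf9 was above 1 in all 11 classes with a median ratio of 1.53, close to the 1.5-fold line, and apart in 6. Those were stem-like cells that were not cycling (1.72, 1.44 to 2.06), cycling progenitor-like cells (1.66, 1.42 to 1.94), Paneth-like cells (1.53, 1.10 to 2.14), enteroendocrine-like cells (2.63, 1.61 to 4.46), tuft-like cells (3.23, 1.88 to 5.91) and the lymphocyte gate (2.14, 1.51 to 3.08). The lymphocyte gate was thus apart for Irf9, from 121 and 45 UMIs. The 8 myeloid markers summed to 1040 CPM in the gate of library 2 and 3081 CPM in that of library 1, with 3 of the 8 at 0, Csf1r among them. The median cell of the gate had 0 and 31.1 UMIs of these markers per 10000. The sum, which takes in Tyrobp and Fcer1g, was not split by gene, so it does not show that the gate held myeloid cells. In enteroendocrine-like cells Gip, the hormone of K cells, stood at 14886 CPM in library 2 and 1460 CPM in library 1, and the median cell had 346 and 178 UMIs of the 10 enteroendocrine markers per 10000. The part of these marker differences in the ratios of either class was not tested. Goblet-like cells fell just short at 1.49 (1.29 to 1.72). Irf1 was apart in none of the 11 classes, with ratios between 0.852 and 1.15.

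Among the receptor chains, Ifngr1, Ifngr2 and Ifnar1 were close to level between the libraries. Ifngr1 ranged from 0.633 to 1.21 and Ifngr2 from 0.728 to 1.04 over the classes measured, and Ifnar1 from 0.728 to 1.25. Ifnar2 ranged from 0.494 to 2.73 over 6 classes and Ifnlr1 from 0.551 to 1.66 over 7. Those rest on few UMIs, so whether these chains were level cannot be told. The single receptor chain apart was Ifnar2 in stem-like cells that were not cycling, with 21 UMIs (5.39 CPM) in library 2, against 10 UMIs (1.97 CPM) in library 1 (ratio 2.73, 1.23 to 6.50). It was no longer apart with marker gates doubled (log2 ratio 0.22), after thinning to 2000 UMIs or with a minimum of 100 UMIs, and in cycling stem-like cells the ratio was 0.572 (0.245 to 1.23). Of 45 pairs of receptor chain and class, 1 higher is 2.22%, and over all genes 4.16% of pairs were higher. Ifnlr1 in cycling progenitor-like cells was the nearest to a lower call, with 15 UMIs in library 2 against 43 in library 1 (ratio 0.551, 0.284 to 1.01).

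**Figure D4:**
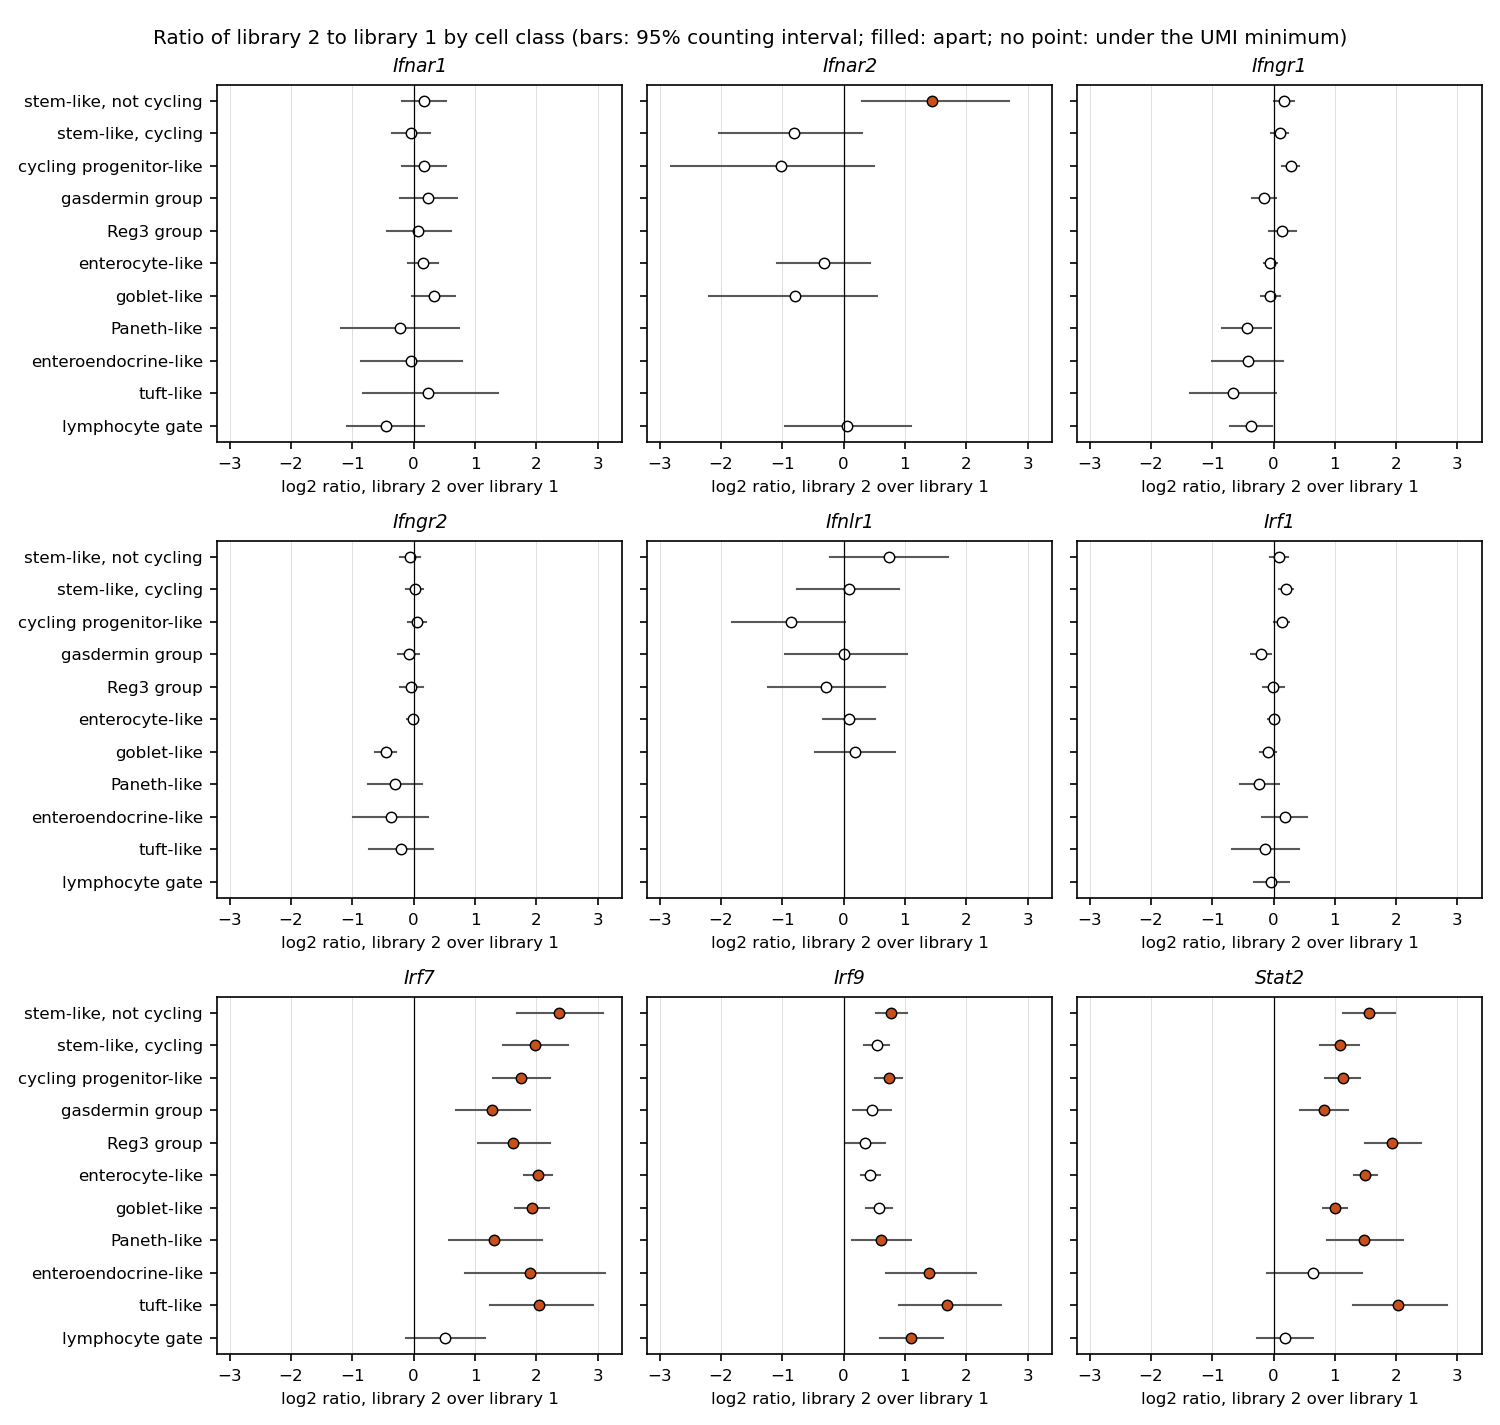
Log2 ratio of library 2 to library 1 for each member by cell class, with exact 95% counting intervals; filled points are apart by the 1.5-fold rule and classes with under 20 UMIs have no point. Filled points are 10 for Irf7, 9 for Stat2, 6 for Irf9 and 1 for Ifnar2, all to the right of 0.

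In single cells the higher Irf7 of library 2 was spread over many cells. After thinning to 4000 UMIs, 26.8% of 548 enterocyte-like cells of library 2 had an Irf7 UMI (23.2 to 30.7) and 6.45% of 527 of library 1 (4.51 to 8.90). Before thinning the Irf7 UMI was seen in 352 of 633 and 135 of 675 of these cells, and after thinning to 2000 UMIs in 15.4% of 573 cells (12.5 to 18.6) and 5.82% of 567 cells (4.04 to 8.08). Stat2 was found in 33.6% (29.6 to 37.7) and 13.1% (10.3 to 16.3) of the same thinned cells. Stem-like cells that were not cycling had Irf7 in 8.11% (5.26 to 11.8) and 1.37% (0.445 to 3.16) at 4000 UMIs, and in 3.74% (1.95 to 6.44) and 1.30% (0.422 to 2.997) at 2000 UMIs, where the intervals overlapped. In enterocyte-like and goblet-like cells, the variance of Irf7 UMIs over its mean was 1.33 and 1.64 in library 2. In library 1 it was 1.04 and 1.33, where a value of 1 is what random sampling of an even level gives. This ratio also rises with the mean at a given spread between cells. The means were 0.363 and 0.380 UMIs in library 2 against 0.0683 and 0.133 in library 1. The ratio therefore does not show whether Irf7 was less even in 1 library. In goblet-like cells of library 2, 25.8% of cells had an Irf7 UMI where an even level would give 31.6%. For Ifngr2 in enterocyte-like cells the same variance ratio was 1.02 and 1.03, and the shares were 53.6% and 55.6% where an even level would give 53.2% and 56.4%.

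Levels over the 22 points of class and library, on the scale log2(CPM + 1), were used to find the genes most like each member among 11027 genes. These correlations describe points that share libraries and depth. Irf7 and Stat2 were each other's closest gene (Pearson r 0.952), followed for both by Apol9a and by Dhx58, which encodes an RNA sensor of the RIG-I family. Irf9 was closest to Xaf1 (0.894), Parp9 and Dhx58. Ifngr2 was closest to Fbp2, Atp1b1 and Eps8l3 (0.977 each), and Ifnlr1 to Stx3 (0.931), Cnksr1 and Degs2. Irf1 was closest to Mfsd14b (0.940), Ifngr1 to Ermp1 (0.949), Ifnar1 to Smg1 (0.977) and Ifnar2 to Pde4a (0.900). Between members, Ifngr2 and Ifnlr1 ran together (0.834), as did Ifngr1 and Irf1 (0.901). The coefficient was 0.135 for Ifngr1 and Ifngr2 and 0.517 for Ifnar1 and Ifnar2. Ifnar2 and Ifngr2, which lie in the same cluster on chromosome 16, ran in opposite directions (-0.700). The points include the lymphocyte gate, highest for Ifnar2 and lowest for Ifngr2 in both libraries. They also include Paneth-like cells, lowest by CPM for Ifngr1, Irf1 and Ifnar1 in both libraries. Alpha-defensin genes took 50.1% and 48.3% of the UMIs of Paneth-like cells, and the part of that share in these coefficients was not tested. A coefficient over the epithelial classes alone was not calculated.

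**Figure D5:**
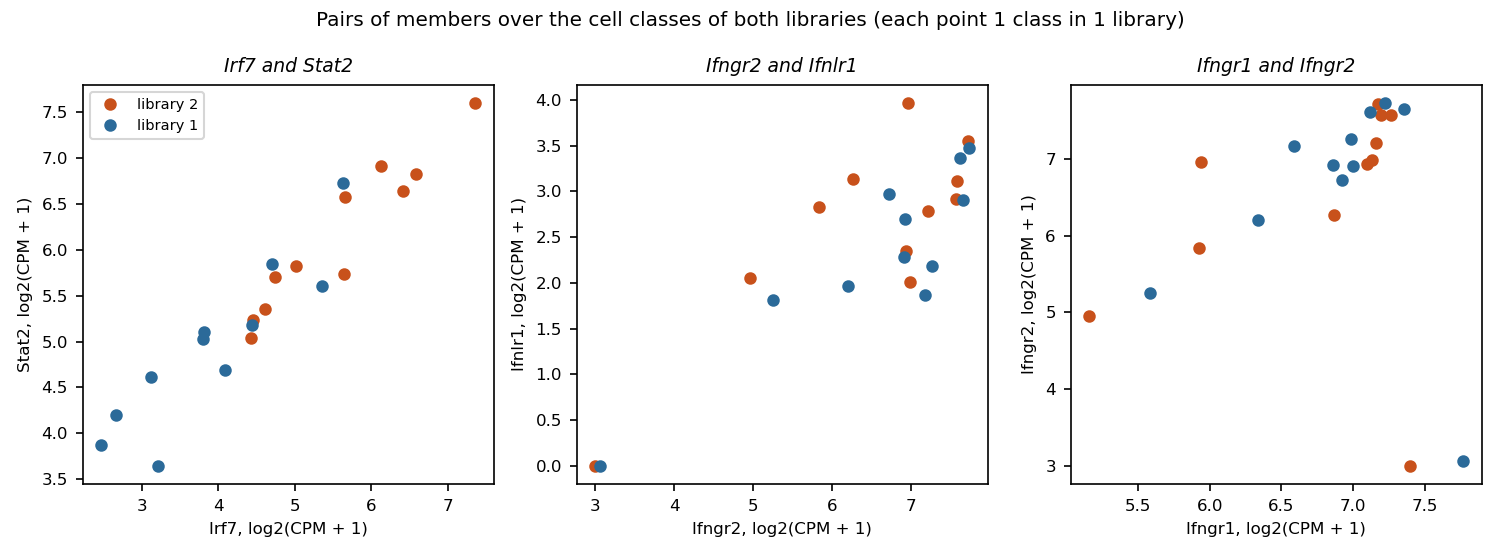
Levels of member pairs on the scale log2(CPM + 1), each point 1 of 11 classes in library 2 or library 1. Irf7 and Stat2 run together (r 0.952), Ifngr2 and Ifnlr1 share a low point in the lymphocyte gate (0.834), and in the plot of Ifngr1 and Ifngr2 the gate stands alone at high Ifngr1 and low Ifngr2 (0.135).

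Around the members, a list of 21 further genes of interferon signalling was read in the same way. Of its 170 pairs with enough UMIs, 30 were higher and 6 lower in library 2, 17.6% and 3.53%. Over all genes 4.16% of pairs were higher and 3.53% lower, so the list's share of lower pairs was that of all genes. Usp18, which switches off the type I receptor, was apart and higher in 6 of 6 classes measured, with 222 and 17 UMIs in enterocyte-like cells (12.2, 7.47 to 21.4). Nlrc5, the activator of MHC class I genes, was apart and higher in 6 of 8 classes, with 79 and 14 UMIs in enterocyte-like cells (5.28, 2.97 to 10.1). Ciita, the activator of MHC class II genes, was apart and higher in 3 of 6 classes, with 57 and 26 UMIs in stem-like cells that were not cycling (2.85, 1.76 to 4.72). Batf2 was apart and higher in 3 of 8 classes, with 156 and 48 UMIs in the Reg3 group (1.995, 1.435 to 2.82). Socs3, an inhibitor of STAT3 signalling, was apart and lower in 3 of 9 classes, with 33 and 117 UMIs in cycling progenitor-like cells (0.446, 0.293 to 0.661), and higher in 1, the enteroendocrine-like cells, with 25 and 7 UMIs (2.99, 1.26 to 8.20). Jak1, Jak2, Tyk2 and Il10rb were apart in no class. After thinning to 2000 UMIs 11 pairs of the list were higher.

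The ligands themselves were almost absent. Of 21 interferon genes in the matrix, 4 had any UMI in kept cells, and the 14 Ifna genes had 2 UMIs together. Ifng, secreted by T cells and natural killer cells, had 31 UMIs in the lymphocyte gate of library 2 and 7 in that of library 1, or 36.1 and 10.3 CPM (ratio 3.52, 1.52 to 9.46), beside the 1040 and 3081 CPM of myeloid markers given above. An Ifng UMI was seen in 26 of 216 cells of the gate in library 2 (12.0%, 8.02 to 17.1) and 6 of 256 in library 1 (2.34%, 0.865 to 5.03). After thinning to 2000 UMIs these shares were 6.49% of 185 cells and 1.54% of 195 cells. The epithelium held 3 Ifng UMIs in library 2 and 0 in library 1. Ifnl2 had 3 and 0 UMIs in the epithelium, and Ifnb1 and Ifnl3 had 0.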

How the data were processed

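Single-cell libraries of mouse duodenal crypts, 1 pooled library in each of 2 groups, were analysed. The authors deposited raw UMI counts per gene and barcode in 1 matrix, per the file headers whole numbers with no normalization. Per the submitters' processing notes, Cell Ranger 2.1.1 and mm10 were used. The rule for cell calling is not stated. Per the labels' protocols, crypts were released in 5 mM EDTA for 30 min, dissociated for 5 min and run on a 10x Chromium 3′ kit, whereas the barcodes have 27 bases, so the chemistry is unsettled.

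Counts of shared symbols were merged. Of 12756 barcodes, 4972 (39.0%) failed the filter of 500 genes and 25% mitochondrial UMIs. Doublets were not called. Cells were gated on marker UMIs per 10000, in this order: lymphocyte genes at least 50 (4 genes) with epithelial genes under 20; goblet 100, Paneth 400, enteroendocrine 30 and tuft 10 (3 genes for the last 2); then gasdermin C genes 3 (both genes), Reg3 genes 60, enterocyte 40 and stem 30. Within each of these sets the largest multiple of its gate decided. The stem class was split at a cycling level of 15, which also set the progenitor class. Gate levels were set after seeing the marker UMIs, not the members. Cells with lymphocyte genes of at least 10 and epithelial genes of at least 20, 46 in library 2 and 53 in library 1, and cells that met no gate, 374 and 411, were left out. Counts were summed by class and library. With no replicates no test was run. The intervals (Poisson, conditional for ratios, Clopper-Pearson for shares) are exact at 95% and cover counting error only, and a count of 0 is taken to allow 3. The ratio rule was tested on simulated data. The members and lists were chosen with earlier results of these data known. Genes named are the members, the 3 closest genes by correlation and those of the fixed signalling and ligand lists, of which 1 gene is not reported here. GENCODE M21 held 99.5% of the 31253 feature identifiers. Python 3.11.15, numpy 2.4.6, scipy 1.17.1 and pandas 2.3.3 were used. Alternatives in cell filter, gate, thinning, scaling, UMI minimum and fold were tried.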

Additional observations from a re-analysis of the deposited data

How the results depend on the processing

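The count of 26 pairs of member and class apart and higher in library 2 stayed between 22 and 28 under all alternatives but thinning each cell to 2000 UMIs, which gave 14, of which 13 were among the 26; fewer UMIs then met the minimum, with 62 pairs measured in place of 89. The same thinning gave 2 in place of 4 members in stem-like cells that were not cycling, and 11 in place of 30 pairs of the signalling list. It also turned the log2 ratio of Irf7 in Paneth-like cells to -1.65 and of Stat2 in the gasdermin C group to -0.27. Pairs lower in library 2 numbered 0, and 1 with no cell filter, a stricter cell filter (1000 genes, 15% mitochondrial UMIs), median-of-ratios scaling or without the top 5% of cells by UMIs, each time Ifnlr1 in cycling progenitor-like cells, and 1 with thinning, Ifngr1 in the lymphocyte gate. Receptor chains apart in either direction numbered 1, with 2 under those 4 settings without thinning, and 0 with marker gates doubled or a minimum of 100 UMIs. Members called higher in the epithelium than in the lymphocyte gate in both libraries numbered 2, Ifngr2 and Ifnlr1. With the stricter cell filter or thinning the number was 1, as Ifnlr1 was lost. The call of Ifnlr1 rests on its 0 UMIs in the gate, which make the ratio infinite, so that any fold is passed. With that 0 set at the 3 counts it allows, Ifnlr1 was 1.97-fold higher in library 2 and 1.38-fold in library 1. The latter is short of the rule's fold, so Ifnlr1 then did not meet the rule in both libraries. Members with a higher share of cells with a UMI in library 2, with intervals that did not overlap, in stem-like cells that were not cycling numbered 0 at 2000 UMIs, 1 at 4000 UMIs and 3 with no thinning. Leaving out barcodes shared between the libraries, an alternative chosen after seeing the data, gave 27 pairs apart. For single member and class ratios, 684 of the alternatives kept their place, 49 moved and 2 reversed. The class with the highest mean level changed for some members. For Ifngr2 it became the Reg3 group after thinning. For Ifnlr1 it became the gasdermin C group after thinning and tuft-like cells with the stricter cell filter. For Stat2 it became the lymphocyte gate with thinning, the stricter cell filter or median-of-ratios scaling. Depth limits Ifnar2 and Ifnlr1 most, and the tuft-like and enteroendocrine-like classes. No paired analysis was possible because each group is 1 pooled library, and for the same reason no replicate could be left out.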
